A study of Mus musculus with 12 samples.

Results

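miR-155 was followed through 12 mouse microRNA arrays as 1 of the 611 mouse miRNAs that the arrays carry. It was taken by its exact name in the files, mmu-miR-155, and it was selected on its measured tunicamycin responses, which moved in opposite directions in the 2 genotypes. Those responses and their difference between genotypes are therefore given as descriptions without a test. MEFs, embryonic fibroblasts of C57BL/6 mice, were either deficient in XBP1 (XBP1KO) or wild type for it (XBP1WT). XBP1 is a transcription factor that the unfolded protein response switches on, and tunicamycin provokes that response by blocking N-linked glycosylation in the endoplasmic reticulum. The 6 groups were XBP1KO MEFs left untreated, given 2 ug/mL tunicamycin for 12 h or given it for 24 h, and XBP1WT MEFs in the same 3 conditions, with 2 arrays per group from separate experiments. The sources used here do not give the design of the deletion, the number of embryos or lines behind each genotype, or whether untreated cells received a vehicle. A miRNA array does not measure Xbp1 mRNA, so the genotype labels could not be checked against the targeted gene.

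miR-155 is processed from Mir155hg, also called Bic, a long non-coding RNA. Its transcription is known to be driven by NF-kB and AP-1 when Toll-like or antigen receptors are engaged, and it is best known from activated macrophages and lymphocytes, where it represses Socs1 and Inpp5d. A miRNA recognises its targets mainly through its seed, bases 2 to 8 counted from the 5′ end. The sequences below, from RefSeq on assembly GRCm38.p6, show the measured strand, its partner strand, the hairpin that holds both, and miR-152, whose signal enters the deposited values of miR-155 as described further on.

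The array name miR-155, in the older naming, is the 5p strand, at chr16:84714143-84714165 on the plus strand. Seeds are in capitals in the 3 mature sequences, and in the hairpin the capitals mark the 5p strand.
mmu-miR-155-5p: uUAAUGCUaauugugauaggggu
mmu-miR-155-3p: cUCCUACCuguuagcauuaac
Mir155 hairpin: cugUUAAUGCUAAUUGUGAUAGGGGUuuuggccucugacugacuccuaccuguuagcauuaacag
mmu-miR-152-3p: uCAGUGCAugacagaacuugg
The hairpin spans chr16:84714140-84714204. Of the 1738 mature mouse miRNAs in the RefSeq table, 0 others share the seed of miR-155-5p, whereas 2 others share that of miR-152-3p. The 3p strand lies at chr16:84714182-84714202 and miR-152-3p at chr11:96850439-96850459, both on the plus strand.

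Every tunicamycin array had a lower total miRNA signal than every untreated array. The unscaled totals over mouse miRNAs ran from 35462 to 185591 on XBP1KO arrays and from 14076 to 108000 on XBP1WT arrays. All untreated arrays were on slide 1 and all tunicamycin arrays on slide 2, so slide and tunicamycin cannot be told apart. Each slide and each of the 4 scans held both genotypes. In bulk RNA, fewer cells of a type and less RNA per cell cannot be told apart. Of 8 fibroblast and mesenchymal markers, 5 were detected on all 12 arrays. Of the blood cell markers, 7 of 8 were detected on no array, and neither was any of the 7 epithelial markers.

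The array carries 2 probes for miR-155 with 10 spots each, and probe A_54_P2337 gave most of the signal. Its mean spot intensity, unscaled, was 28.2 and 26.8 on the untreated XBP1KO arrays, 13.1 and 22.9 at 12 h and 18.4 and 16.5 at 24 h. On the XBP1WT arrays it was 104.7 and 124.2 untreated, 22.1 and 38.4 at 12 h and 16.6 and 35.0 at 24 h. The 2 untreated XBP1WT arrays thus stood above all others, and every one of the remaining 10 arrays lay below 40. The spots agreed closely, with a standard deviation (SD) over spots of 2.75 and 1.79 in untreated XBP1KO cells and 6.11 and 4.79 in untreated XBP1WT cells.

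The other probe, A_54_P2336, was near background on most arrays. It read 5.42 and 6.67 on the untreated XBP1KO arrays and 22.5 and 31.0 on the untreated XBP1WT arrays. On the 8 tunicamycin arrays it ran from 0.946 to 2.62 in XBP1KO cells and from 2.60 to 7.35 in XBP1WT cells. The negative-control spots averaged 1.69 to 4.92 over the 12 arrays. The scanner software called this probe detected (total signal over 3 times its error) on the 2 untreated XBP1WT arrays only, and called A_54_P2337 detected on all 12. The brighter probe made up 80.0% to 93.3% of the summed signal, so the values below rest mainly on it.

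**Figure D1:**
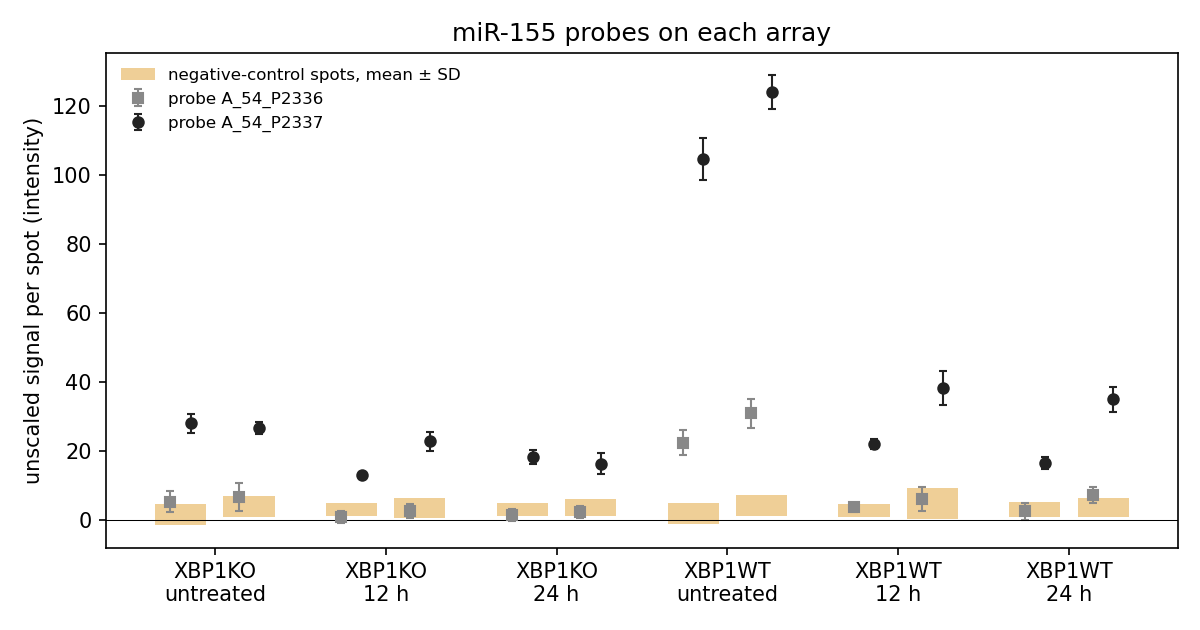
Unscaled mean signal per spot of the 2 miR-155 probes (vertical axis, intensity) on each of the 12 arrays, by genotype and time (horizontal axis), with bars for the SD over spots and bands for the mean ± SD of the negative-control spots. Probe A_54_P2337 is above the band on every array and reaches 104.7 and 124.2 in untreated XBP1WT cells, while probe A_54_P2336 leaves the band clearly in untreated XBP1WT cells.

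The probe means were summed and the arrays scaled to an equal 75th percentile of the 95 miRNAs detected on all arrays. Scaled miR-155 signal in XBP1KO cells was 10.8 and 10.6 untreated, 24.4 and 18.2 at 12 h and 28.6 and 25.6 at 24 h. In XBP1WT cells it was 74.1 and 77.1 untreated, 55.7 and 51.3 at 12 h and 72.4 and 63.5 at 24 h. All 6 XBP1KO arrays lay below all 6 XBP1WT arrays. The untreated XBP1KO arrays were just above the floor of 10.0 that was set for dim signals.

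From high to low, the groups ran untreated XBP1WT (75.6 ± 2.16, SD, n = 2), XBP1WT at 24 h (67.9 ± 6.24), XBP1WT at 12 h (53.5 ± 3.13), XBP1KO at 24 h (27.1 ± 2.13), XBP1KO at 12 h (21.3 ± 4.38) and untreated XBP1KO (10.74 ± 0.128). The ranges of neighbouring groups did not overlap, although with 2 arrays each some gaps were narrow. The gap was narrower than the range within 1 of the neighbouring groups for XBP1WT at 24 h beside untreated, for XBP1WT at 24 h beside 12 h, and for XBP1KO at 24 h beside 12 h. On the log2 scale, tunicamycin minus untreated was 0.97 at 12 h and 1.33 at 24 h in XBP1KO cells, against -0.50 at 12 h and -0.16 at 24 h in XBP1WT cells. The XBP1KO response minus the XBP1WT response was 1.48 at 12 h and 1.49 at 24 h, and these 2 values share the untreated arrays.

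**Figure D2:**
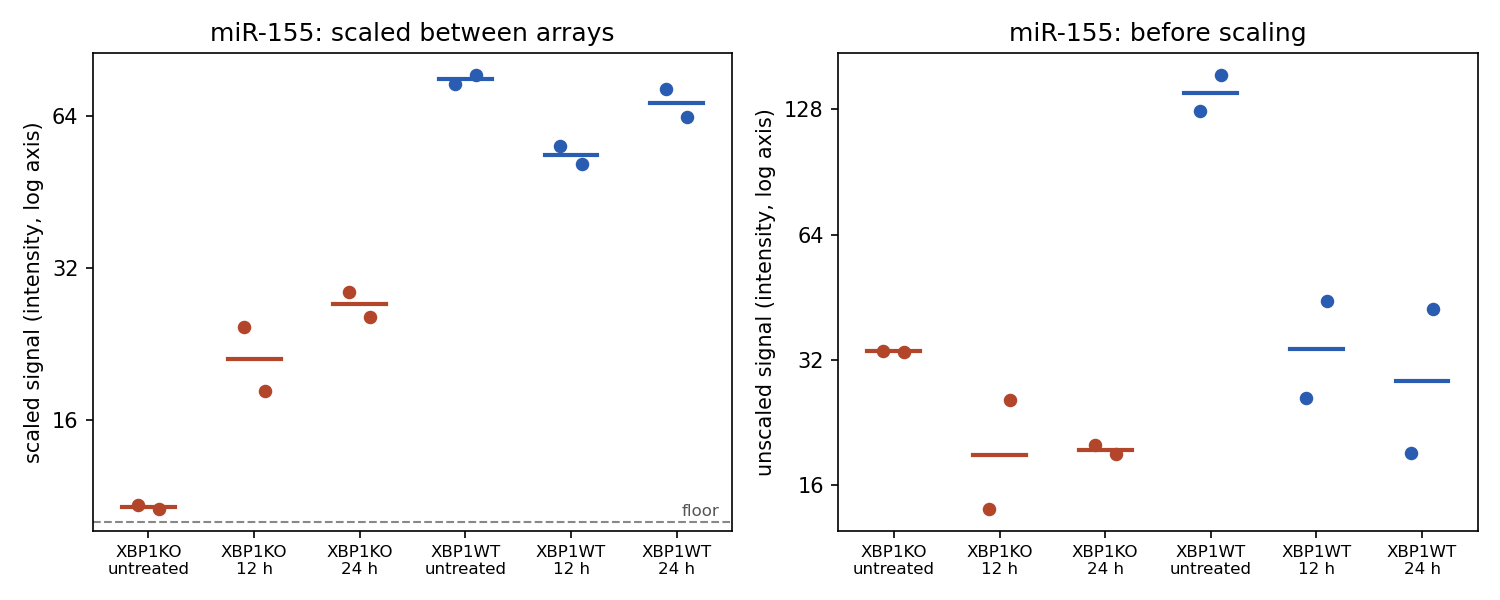
miR-155 signal (sum of the probe means, intensity on a log2-spaced axis) on each array, scaled between arrays (left) and unscaled (right), with a bar at the geometric mean of each group of 2. On the scaled axis XBP1KO arrays climb from 10.6 to 28.6 over the 3 conditions and XBP1WT arrays stay between 51.3 and 77.1, whereas unscaled the tunicamycin arrays of both genotypes lie below their untreated arrays.

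Those directions hold relative to the other miRNAs of the same array and not for the raw signal. In XBP1WT cells they barely hold against the miRNAs detected on all arrays. The unscaled sum was 33.6 and 33.5 in untreated XBP1KO cells, 14.0 and 25.6 at 12 h and 19.9 and 19.0 at 24 h. In XBP1WT cells it was 127.2 and 155.1 untreated, 25.9 and 44.4 at 12 h and 19.2 and 42.4 at 24 h. Before scaling, both genotypes were thus lower after tunicamycin, with a log2 difference at 12 h of -0.82 in XBP1KO cells and -2.05 in XBP1WT cells. The median of all 256 tested miRNAs moved at the same time, by -1.53 in XBP1KO cells and -1.36 in XBP1WT cells. Set against that median, the unscaled 12 h difference of miR-155 was 0.71 in XBP1KO cells and -0.69 in XBP1WT cells, beside scaled values of 0.97 in XBP1KO cells and -0.41 in XBP1WT cells relative to their own medians. Against the median of only the 95 miRNAs detected on all arrays, the scaled 12 h difference was 1.42 in XBP1KO cells and -0.08 in XBP1WT cells. At 24 h it was 1.38 in XBP1KO cells and -0.08 in XBP1WT cells.

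The hybridisation spike-in, a control RNA added to each array, gave another scale, which was chosen after seeing the data. On that scale the 12 h difference was -1.43 in XBP1KO cells and -1.94 in XBP1WT cells. Relative to the median of all tested miRNAs it was 0.95 in XBP1KO cells and -0.48 in XBP1WT cells. With normexp background correction, which models the local background, the 12 h difference was 1.05 in XBP1KO cells and 0.72 in XBP1WT cells. Relative to the median this became 0.16 in XBP1KO cells and -0.51 in XBP1WT cells. With the negative-control mean subtracted, also chosen after seeing the data, the 12 h difference was 0.59 in XBP1KO cells and -0.77 in XBP1WT cells. In every scaling, background and summary setting built from the probe signals the sign relative to the median was positive in XBP1KO cells and negative in XBP1WT cells at 12 h, except for probe A_54_P2336 alone, which was at the floor on all XBP1KO arrays.

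The genotype difference averaged over the 3 conditions does not use the tunicamycin responses, so it was tested. miR-155 was lower in XBP1KO cells, with a log2 difference of -1.83 (SE 0.12, limma adjusted p = 7.48e-05). The SE and p measure the spread between arrays of a group. With the number of lines per genotype unknown, loss of XBP1 and a difference between cell lines cannot be told apart. miR-155 was also lower in 6 of 6 pairs of same-numbered arrays, which adds nothing to the full separation of the genotypes given above. Over the 256 tested miRNAs, 12.9% were lower in XBP1KO cells and 10.2% higher at an adjusted p under 0.05, 23.0% in all. That split of 33 lower and 26 higher depended on the scale, and was 4 lower and 48 higher unscaled and 156 lower and 11 higher with normexp. The estimate for miR-155 was the lowest of the 256, followed by miR-31* at -1.75, and the median of all was -0.08. Averaged within each scan, the difference was -2.77 and -2.86 on the untreated scans and -1.26 and -1.40 on the tunicamycin scans.

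By condition, XBP1KO minus XBP1WT was -2.82 in untreated cells, -1.34 at 12 h and -1.33 at 24 h. These 3 values are descriptions, since their differences are the responses that chose miR-155. Before scaling XBP1KO minus XBP1WT was -2.07 untreated, -0.84 at 12 h and -0.55 at 24 h, and the unscaled sums of the genotypes overlapped at 24 h. With spike-in scaling the difference over all conditions was -1.05 and did not pass the test (limma adjusted p = 0.716), and relative to the median of all tested miRNAs it was -1.34. Its size also depended on the background and summary, at -0.83 with normexp (limma adjusted p = 0.000657), -1.15 unscaled (limma adjusted p = 0.0249) and -0.46 with the software's full totals (limma adjusted p = 0.00183), which are described next. With normexp the median of all tested miRNAs was itself -0.46, and relative to that median miR-155 was at -0.37. Probe A_54_P2336 alone gave -0.19 (limma adjusted p = 0.0218). For this probe all XBP1KO arrays, both XBP1WT 12 h arrays and the first XBP1WT 24 h array were at the floor. That value therefore rests mainly on the untreated XBP1WT arrays and the floor. Leaving out each array in turn gave -1.90 to -1.76.

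The authors' deposited table gives a different picture of miR-155. In the authors' deposited table its log2 value was 6.84 and 7.06 in untreated XBP1KO cells, 5.81 and 6.75 at 12 h and 6.57 and 6.87 at 24 h. In XBP1WT cells the authors' deposited table has 6.35 and 6.70 untreated, 5.88 and 6.76 at 12 h and 5.62 and 6.92 at 24 h. Here the untreated XBP1KO arrays were above the untreated XBP1WT arrays, the reverse of both probes. Computed from the authors' deposited table, the difference over all conditions was 0.28 (limma adjusted p = 0.655 over 130 miRNAs) and the 12 h response was -0.66 in XBP1KO cells and -0.21 in XBP1WT cells.

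The deposited values equal the log2 of the software's total signal per miRNA, and those totals could be taken apart exactly. Where all probes of a miRNA were detected, the total equalled the sum of its probe totals, in 1394 of 2189 detected pairs of a miRNA and an array. Where some probe was undetected, the total equalled the detected probes alone in 107 pairs. In 681 pairs it equalled the detected probes plus the whole total of the detected miRNA that precedes it in alphabetical order, and in 7 pairs the detected probes plus the total of a control. This arithmetic left 0 pairs unaccounted for within a relative tolerance of 2e-05 or 0.002 units of signal, and it touched 187 of the 280 mouse miRNAs detected on at least 1 array.

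For miR-155 the added signal was present on 10 of 12 arrays, all but the 2 untreated XBP1WT arrays, where both probes were detected. On the untreated XBP1KO arrays the software's total for miR-155 was 114.3 and 133.1, of which its own detected probe gave 17.7 and 17.7 and miR-152 gave 96.6 and 115.4. On the untreated XBP1WT arrays the totals of 81.5 and 104.2 were its own probes alone. The preceding detected miRNA was miR-152 on 4 arrays, untreated and 24 h XBP1KO, and miR-151-5p on the other 6. Over these 10 arrays, 75.2% to 90.3% of the total came from the total of that miRNA. The added total can itself hold a further miRNA's signal. In the authors' deposited table, 24 h XBP1KO arrays had 6.38 and 6.72 (log2) for miR-152, just above 6.27 and 6.60 for miR-151-5p. The part there from the probes of miR-152 itself was not resolved. On the untreated XBP1KO arrays the authors' values were 6.59 and 6.85 for miR-152, below 8.24 and 8.48 for miR-151-5p.

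**Figure D3:**
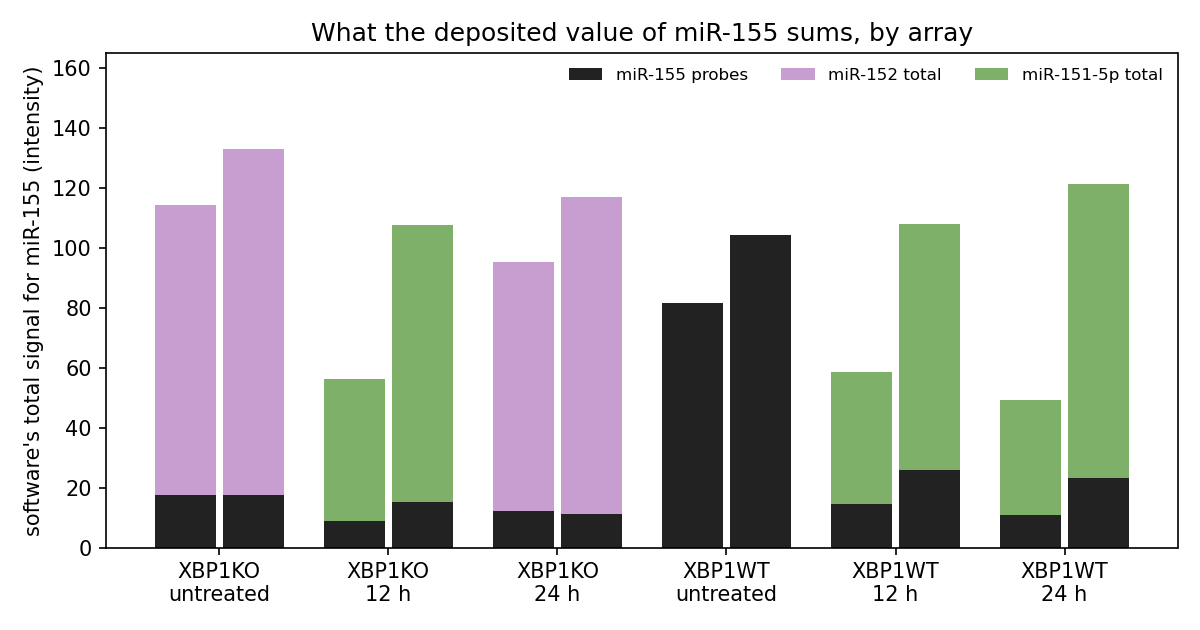
The software's total signal for miR-155 (intensity), whose log2 is the deposited value, on each array, split into the detected miR-155 probes (black) and the total of the preceding detected miRNA, miR-152 or miR-151-5p (coloured). The black part is 17.7 on both untreated XBP1KO arrays and 81.5 and 104.2 on the untreated XBP1WT arrays, while the full bars are 114.3 and 133.1 for untreated XBP1KO.

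With the software's detected probe totals alone, without the added signal, the scaled differences had the same signs as those from the spots. Over all conditions XBP1KO minus XBP1WT was then -1.86, and the 12 h response was 1.13 in XBP1KO cells and -0.72 in XBP1WT cells. This summary counts probe A_54_P2336 on the untreated XBP1WT arrays only, which raises those arrays beside the rest. Probe A_54_P2337 alone gave -1.70 over all conditions, and 0.94 in XBP1KO cells and -0.42 in XBP1WT cells at 12 h. With the software's full totals, scaled in the same way, the 12 h response was 0.89 in XBP1KO cells and 1.24 in XBP1WT cells. The 24 h response from the full totals was 1.64 in XBP1KO cells and 1.60 in XBP1WT cells, so the opposite directions were absent from that summary.

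**Figure D4:**
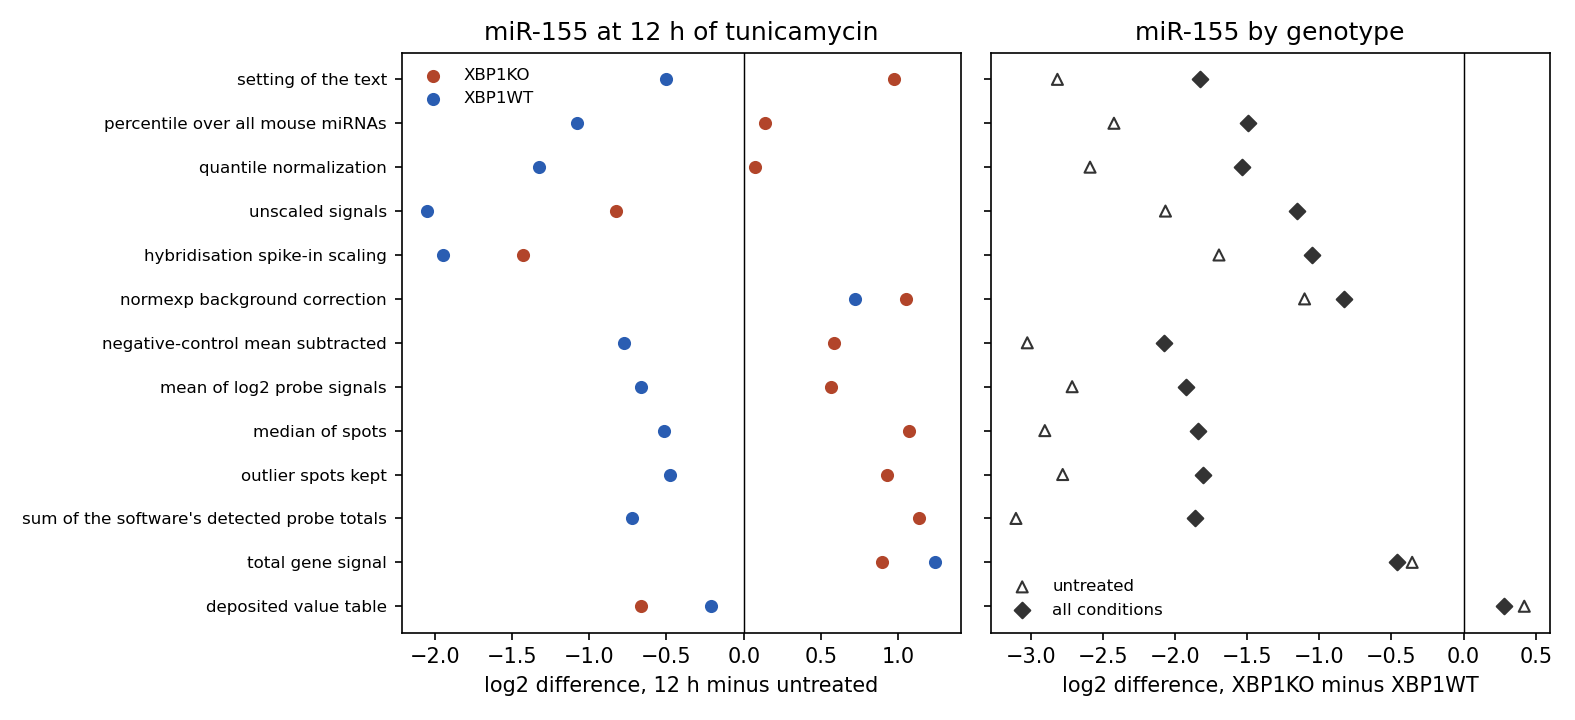
Log2 differences of miR-155 (horizontal axes) under each way of summarising and scaling the arrays (rows), for the 12 h response of XBP1KO and XBP1WT cells (left) and for XBP1KO minus XBP1WT in untreated cells and over all conditions (right). The responses lie on opposite sides of 0 in the setting of the text and on the same side unscaled, with spike-in scaling, with normexp and in the 2 summaries that hold the added signal, and the genotype difference is positive in the deposited value table only.

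The miRNAs whose scaled signal followed that of miR-155 most closely over the 12 arrays were sought among the 95 detected on all of them. Pearson's r was 0.930 for miR-31, 0.908 for miR-31*, 0.839 for miR-720, 0.766 for miR-92a and 0.743 for miR-129-5p, and the lowest were -0.849 for miR-199b* and -0.801 for miR-221. All points share the scale factor of their array, and the 2 genotypes form separate clusters, so r is given as a description. Without scaling r was 0.929 for miR-31 but 0.693 for miR-92a. miR-31 and miR-31* are the strands of a single hairpin.

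miR-31 had scaled signals of 110.1 and 110.8 in untreated XBP1KO cells, against 367.4 and 333.5 in untreated XBP1WT cells. At 24 h it had 167.4 and 199.1 in XBP1KO cells, against 514.9 and 594.1 in XBP1WT cells. The genotypes did not overlap in either condition. Over all conditions miR-31 was lower in XBP1KO cells, with a log2 difference of -1.62 (SE 0.07, limma adjusted p = 9.48e-06), beside the -1.83 of miR-155. Its 24 h response was 0.73 in XBP1KO cells (limma adjusted p = 0.00984) and 0.66 in XBP1WT cells (limma adjusted p = 0.0109), so unlike miR-155 it rose in both genotypes on the scaled signals. These 2 values were negative unscaled, with spike-in scaling and in the authors' deposited table.

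miR-221, which represses the cell-cycle inhibitor Cdkn1b, had the opposite genotype pattern. It averaged 7.80 ± 0.02 (scaled log2, SD, n = 2) in untreated XBP1KO cells and 6.48 ± 0.01 in untreated XBP1WT cells. Over all conditions it was higher in XBP1KO cells by 1.18 (limma adjusted p = 0.00185), and positive in every scaling, background and summary setting, though it did not pass the test with spike-in scaling or normexp. miR-199b* was higher in XBP1KO cells by 1.93, and its untreated means were 8.58 ± 0.09 in XBP1KO cells and 6.57 ± 0.08 in XBP1WT cells.

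**Figure D5:**
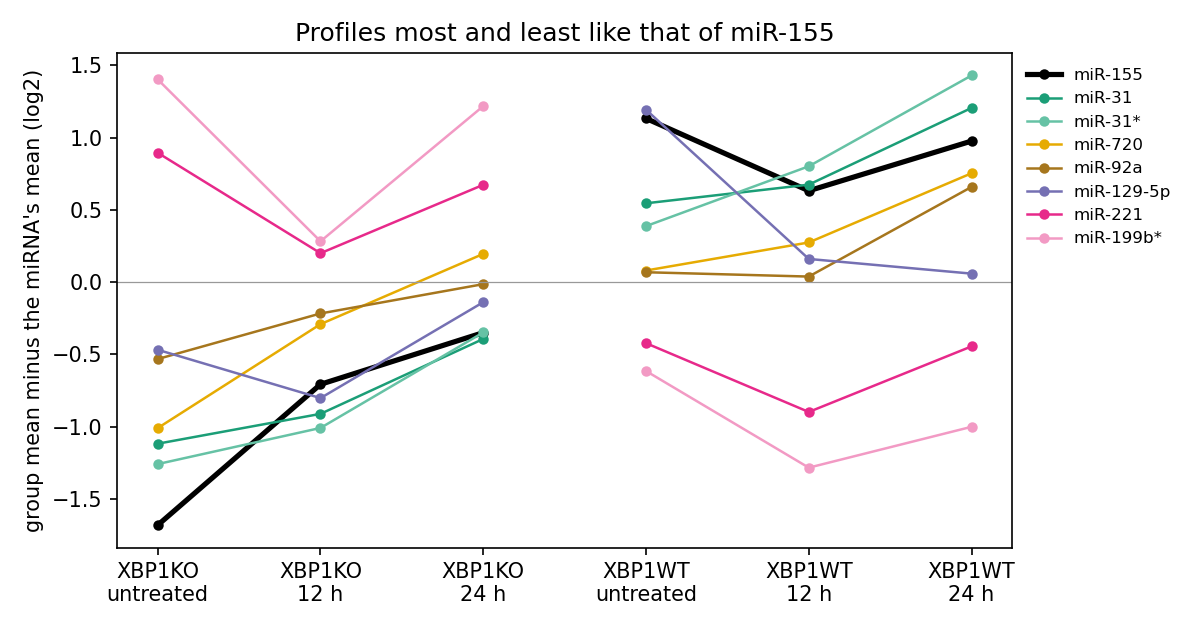
Group means of scaled log2 signal minus each miRNA's mean over the groups (vertical axis, log2) for miR-155, the 5 miRNAs with the highest correlation and the 2 with the lowest, by genotype and time. miR-155, miR-31 and miR-31* are low in XBP1KO and high in XBP1WT cells, while miR-221 and miR-199b* are the reverse.

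Among other miRNAs listed here for a link to NF-kB or Toll-like receptor signalling, none was seen to rise after tunicamycin on the scaled signals. That link need not be induction. Of 9 listed, 6 were tested. Of these, miR-132 was at the floor before and after tunicamycin in both genotypes. miR-9 was tested only because it was detected in untreated XBP1KO cells, so in those cells it could only fall. At 12 h 5 fell and 0 rose in XBP1KO cells, and 4 fell and 0 rose in XBP1WT cells, where 25.4% of all tested miRNAs fell in each genotype, and 23.8% rose in XBP1KO cells and 25.4% in XBP1WT cells. The list's median at 12 h was -1.09 in XBP1KO cells and -0.74 in XBP1WT cells, beside medians of 0.00 in XBP1KO cells and -0.09 in XBP1WT cells over all tested miRNAs. At an unadjusted p under 0.05 limma's test also counted 0 that rose in either genotype. With normexp 2 rose and 3 fell in XBP1KO cells, and 3 rose and 2 fell in XBP1WT cells, on a scale where 164 of all 256 rose in XBP1KO cells and 181 in XBP1WT cells. At 24 h 3 fell and 0 rose in each genotype, where 10.9% of all tested miRNAs fell and 3.12% rose in XBP1KO cells, and 14.8% fell and 2.73% rose in XBP1WT cells.

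miR-146b, a repressor of Toll-like receptor signalling, had a 12 h log2 difference of -4.19 (SE 0.41, limma adjusted p = 0.000328) in XBP1KO cells and -2.68 (SE 0.41, limma adjusted p = 0.00203) in XBP1WT cells. Its value in XBP1WT cells was 0.22 with the software's full totals. miR-125b-5p fell by 1.02 (log2) in XBP1KO cells and by 0.88 in XBP1WT cells, and this direction was the same in every scaling tried. miR-21, an abundant fibroblast miRNA, fell by 0.96 in XBP1KO cells and by 0.60 in XBP1WT cells, and it ranked highest on every array, so quantile normalization sets its difference to 0. The XBP1KO response minus the XBP1WT response at 12 h passed the test for 1 of the 6, where 5.86% of all tested miRNAs passed. That miRNA was miR-9, which was above the floor on the untreated XBP1KO arrays only, so its difference is set by the floor.

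miRNAs linked to the unfolded protein response moved in both directions. Of 17 listed, 13 were tested, of which 3 rose and 5 fell at 12 h in XBP1KO cells and 3 rose and 7 fell in XBP1WT cells, where 23.8% of all tested miRNAs rose in XBP1KO cells and 25.4% in XBP1WT cells, and 25.4% fell in each. With normexp, on that same scale of mostly higher values, 4 rose and 3 fell in XBP1KO cells, and 4 rose and 1 fell in XBP1WT cells. With spike-in scaling 1 rose and 3 fell in XBP1KO cells, and 0 rose and 0 fell in XBP1WT cells. The members that rose were miR-346, miR-211 and miR-204 in both genotypes, and none of these was detected on an untreated array. They were tested only because they were called present on tunicamycin arrays, and their untreated values were all at the floor. These members could therefore only rise, and their counts and limma p-values carry no weight as a test. A fold against an undetected group is a lower bound, the 12 h mean over the higher of the lowest detected signal and the floored signal of each untreated array. miR-346, which XBP1 is known to induce in human cells, averaged 8.77 (scaled log2) at 12 h in XBP1KO cells, against the floor of 3.33 untreated, at least 43.5-fold higher (limma adjusted p = 0.00602). In XBP1WT cells miR-346 averaged 8.73 at 12 h, against 3.33 untreated, at least 42.2-fold higher (limma adjusted p = 0.00602). miR-211, which PERK is known to induce, was at least 11.7-fold higher in XBP1KO cells (limma adjusted p = 0.00172) and at least 12.4-fold higher in XBP1WT cells (limma adjusted p = 0.00158). miR-204 was detected at 12 h on 2 XBP1KO arrays and 1 XBP1WT array. The values of miR-346 and miR-211 were positive in every scaling, background and summary setting that held them. With spike-in scaling limma's test passed only for miR-346 in XBP1KO cells. miR-93, which comes from the miR-106b cluster within Mcm7, fell by 0.47 (log2, limma adjusted p = 0.0114) in XBP1KO cells and by 1.04 (limma adjusted p = 0.000504) in XBP1WT cells. With normexp, with the software's full totals and in the authors' deposited table the values of miR-93 were positive. The difference between the genotypes' responses passed limma's test for 0 of the 13 at 12 h, where 5.86% of all passed, and for 0 at 24 h, where 4.69% passed. At an unadjusted p under 0.05 the same test counted 3 of the 13 at 12 h and 2 at 24 h.

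Over all conditions 1 of the 6 NF-kB or Toll-like receptor miRNAs and 2 of the 13 unfolded protein response miRNAs were higher in XBP1KO cells, and 0 of either list were lower by limma's test, with miR-125b-5p, which is in both lists, lower at an unadjusted p under 0.05 (-0.24). Over all tested miRNAs 10.2% were higher and 12.9% lower. The members that were higher were miR-221 (1.18) and miR-222 (0.62, limma adjusted p = 0.00994), a pair from a single cluster, and miR-9. miR-222 was detected on 5 arrays and on 0 of the 12 h arrays in either genotype. In XBP1WT cells miR-222 was at the floor at 12 h, so its value depends in part on the floor. miR-9 was above the floor on the untreated XBP1KO arrays only and was tested through that group alone. Its value of 0.39 is therefore set by that group and the floor. Unscaled, 5 of the 6 and 3 of the 13 were higher, and 0 of either list lower. With normexp 2 of the 13 were lower, and with the software's full totals 1 of the 6 and 3 of the 13 were.

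Blood cell markers, which matter here because miR-155 is abundant in activated leukocytes, were mostly undetected. Of the 8 listed, which are not all leukocyte markers, miR-142-3p, miR-142-5p, miR-223, miR-150, miR-144, miR-451 and miR-486 were detected on no array. miR-342-3p was detected on 10 arrays and made up most of the sum where that was high. Its scaled signal was 70.7 and 77.8 in untreated XBP1KO cells, 28.6 and 29.01 at 12 h and 40.7 and 89.2 at 24 h. In XBP1WT cells it was 35.0 and 35.6 untreated, 14.3 and 31.2 at 12 h, and 10.0, the floor, and 18.5 at 24 h. Over all conditions miR-342-3p was higher in XBP1KO cells by 1.22 (log2, SE 0.30, limma adjusted p = 0.0313), the opposite direction to miR-155, and its part in the result was not tested. The summed scaled signal of the 8, without a floor, ran from 76.4 to 82.1 in untreated XBP1KO cells, 9.04 to 10.74 at 12 h and 26.8 to 74.6 at 24 h. In XBP1WT cells it ran from 36.9 to 40.3 untreated, -17.7 to 23.3 at 12 h and -54.4 to -1.85 at 24 h.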

How the data were processed

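The authors deposited scanner files of 1-colour (Cy3) Agilent arrays. Per the file headers, Agilent Feature Extraction 10.7.1.1 made the spot intensity values. These intensities are background-subtracted and not normalized between arrays. A deposited table gives the authors' log2 value of each miRNA, which matched the logged total signal of the software to within 1.15e-06. Control spots and outlier spots were left out, spots were averaged per probe and probe means summed per miRNA. Each array was scaled to an equal 75th percentile over 95 miRNAs, and log2 was taken after raising values under 10.0 (the 5th percentile of detected signals) to that floor. The 256 miRNAs tested were called present on both arrays in 1 or more groups.

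limma 3.58.1 in R 4.3.3 (with package data.table, version 1.17.8) fitted 1 mean per group to all 12 arrays (eBayes with trend, 6 residual degrees of freedom, prior worth 0.981), with Benjamini-Hochberg adjustment and a threshold of 0.05. Plots used matplotlib 3.10.9 in Python 3.11.15. The code was tested on simulated data. Precision is limited by the number of arrays. The alternatives, among them other scalings, background corrections, probe summaries, blocks and left-out arrays, are given in the closing section. The files hold no mean spot signal, so normexp (offset 50) used the median spot signal and its local background. Named miRNAs are miR-155, per list and comparison up to 4 tested members with the lowest p, the 5 highest and 2 lowest correlations and, chosen after its values were seen, miR-93 in XBP1KO cells. miR-155 and the lists were chosen with earlier results of these data known. No miRNA sequence is printed for miR-151-5p.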

Additional observations from a re-analysis of the deposited data

Results flagged for a closer look

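At 12 h every XBP1KO tunicamycin array (24.4 and 18.2, scaled signal) lay above every untreated XBP1KO array, and every XBP1WT tunicamycin array (55.7 and 51.3) lay below every untreated XBP1WT array. The XBP1KO response minus the XBP1WT response was 1.48 (log2). At 24 h the arrays moved in the same opposite ways, and the difference was 1.49. Neither difference was tested, because it is the contrast that chose miR-155. Total signal was lower on every tunicamycin array, tunicamycin and slide cannot be told apart, and the part of either in these differences was not tested. In groups of 2, no single array could be examined for standing apart.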

How the results depend on the processing

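The genotype difference of miR-155 over all conditions kept its direction and passed the test in 30 of 32 alternatives, 4 of the kinds of alternative having been chosen after seeing the data (spike-in scaling, detected probe totals, negative-control subtraction and scan as a fixed block). The alternatives are not independent, since they include leaving out each array in turn and settings that repeat the estimate of -1.83, such as no filter. With spike-in scaling it was -1.05 and did not pass (limma adjusted p = 0.716), and in the deposited value table it was 0.28. Its size ranged widely among those that passed, from -0.19 with probe A_54_P2336 alone, -0.46 with the software's full totals, -0.83 with normexp and -1.15 unscaled to -2.08 with the negative-control mean subtracted. The value of that probe is set mainly by the floor. The full totals hold mostly another miRNA's signal on 10 of 12 arrays, so neither pass adds weight for miR-155. With normexp the median of all tested miRNAs was itself -0.46, and miR-155 was at -0.37 relative to it. Adjusted p over the alternatives ran from 1.84e-06 to 0.716. The replicate block gave -1.83 (limma adjusted p = 0.000243) and 53 miRNAs past the threshold. Over 15 pairs of groups, same-numbered deviations correlated between -0.55 and 0.87, with 6 over 0.1, and with no label that ties them the numbers were not taken as pairs. Within a slide, however, the replicate number coincides with the scan, and scan as a fixed block gave limma adjusted p = 0.00072 and 46 miRNAs.

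The responses, which were not tested, depended on the scale, the background and the summary. Unscaled, the response was -0.82 in XBP1KO and -2.05 in XBP1WT cells at 12 h, and -0.79 in XBP1KO and -2.30 in XBP1WT cells at 24 h, with a difference between genotypes of 1.22 at 12 h and -2.07 between untreated cells. With spike-in scaling it was -1.43 in XBP1KO and -1.94 in XBP1WT cells at 12 h, and -1.28 in XBP1KO and -2.69 in XBP1WT cells at 24 h, with differences of 0.51 at 12 h and -1.70 untreated. With the percentile over all mouse miRNAs the 12 h responses were 0.14 in XBP1KO and -1.08 in XBP1WT cells, the 24 h response in XBP1KO cells was 1.55, and the differences were 1.22 at 12 h and -2.42 untreated. With quantile normalization they were 0.071 in XBP1KO and -1.33 in XBP1WT cells at 12 h and 1.53 in XBP1KO cells at 24 h, with differences of 1.77 at 24 h and -2.59 untreated. The median of all tested miRNAs at 12 h shifted to -2.38 in XBP1KO and -1.46 in XBP1WT cells with spike-in scaling, to -0.56 in XBP1KO and -0.55 in XBP1WT cells with the percentile over all miRNAs, and to -0.53 in XBP1KO and -0.68 in XBP1WT cells with quantile normalization.

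With normexp the XBP1WT responses were 0.72 at 12 h and 0.78 at 24 h, and the differences were 0.33 at 12 h, 0.50 at 24 h and -1.10 untreated, while the medians of all miRNAs at 12 h were 0.89 in XBP1KO and 1.23 in XBP1WT cells. With the negative-control mean subtracted the responses were 0.59 in XBP1KO and -0.77 in XBP1WT cells at 12 h and 1.00 in XBP1KO and -0.48 in XBP1WT cells at 24 h, with -3.02 untreated. The software's full totals gave 1.24 in XBP1WT cells at 12 h, 1.64 in XBP1KO and 1.60 in XBP1WT cells at 24 h, and differences of -0.35 at 12 h, 0.035 at 24 h and -0.36 untreated. The deposited value table gave -0.66 in XBP1KO and -0.21 in XBP1WT cells at 12 h, -0.22 in XBP1KO cells at 24 h, and differences of -0.45 at 12 h, 0.031 at 24 h and 0.42 untreated. The full totals differ from the detected probe totals by the added signal, and the deposited table also lacks the scaling between arrays. The detected probe totals gave 1.13 in XBP1KO and -0.72 in XBP1WT cells at 12 h, -0.40 in XBP1WT cells at 24 h, and differences of 1.86 at 12 h, 1.86 at 24 h and -3.10 untreated. For the other settings, and for the deposited table beyond this, the cause was not tested.

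The mean of log2 probe signals gave 0.57 in XBP1KO and -0.66 in XBP1WT cells at 12 h, 0.87 in XBP1KO cells at 24 h, and differences of 1.23 at 12 h and 1.14 at 24 h. Probe A_54_P2336 alone gave 0.00 in XBP1KO cells at both times, where it was at the floor, -0.43 in XBP1WT cells at 24 h, and differences of 0.50 at 12 h, 0.43 at 24 h and -0.50 untreated. Both XBP1WT 12 h arrays and the first XBP1WT 24 h array were at the floor too, so these values rest mainly on the untreated XBP1WT arrays. Probe A_54_P2337 alone gave -2.61 untreated. Leaving out each array in turn gave 0.76 to 1.19 in XBP1KO and -0.56 to -0.44 in XBP1WT cells at 12 h, 1.25 to 1.41 in XBP1KO and -0.25 to -0.06 in XBP1WT cells at 24 h, differences of 1.26 to 1.69 at 12 h and 1.40 to 1.58 at 24 h, -2.84 to -2.79 untreated and -1.90 to -1.76 over all conditions.

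The count of miRNAs past the threshold between genotypes was 59 (26 higher and 33 lower in XBP1KO cells). It was 36 (29 higher, 7 lower) with the percentile over all miRNAs, 52 (48 and 4) unscaled, 31 (19 and 12) with quantile normalization, 167 (11 and 156) with normexp, 16 (14 and 2) with spike-in scaling, 11 (all higher) in the deposited value table, 36 over the miRNAs detected on all arrays and 28 with no filter. It ran from 35 to 89 with an array left out, under 40 without any of the untreated or XBP1KO 12 h arrays and highest without the second XBP1KO 24 h array. With 2 arrays per group and 1 of 2 probes at background on 10 arrays, a small response of miR-155 could not be resolved.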
